A study of Mus musculus with 24 samples.

Results

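The comparison described here set the CA1 transcriptome 36 h after status epilepticus (SE) against that 24 h after SE. SE is a prolonged, self-sustaining seizure. CA1 is the output subfield of the hippocampus proper, and its pyramidal cells and glia are altered as epilepsy develops. The members were the 3 libraries labelled SE 24 h and the 3 labelled SE 36 h, 6 of 24 libraries in all, chosen by their labels and not by their values. All 24 came from adult C57Bl/6N mice that received scopolamine methyl nitrate (1 mg/kg). The SE mice then received pilocarpine (335 mg/kg), a muscarinic agonist that triggers SE, and diazepam (4 mg/kg) 40 min after SE onset, which shortens the seizure. Control mice had the same handling with saline in the place of pilocarpine. Only pilocarpine-injected mice that developed SE entered the SE groups. Other SE mice were taken at 6, 12 and 72 h, and control mice at 12, 36 and 72 h. No control group was taken at 24 h, so the effect of SE at 24 h could not be set against a control of its own time. The question was what moved in CA1 over the 12 h between the 2 time points.

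As background, seizures induce immediate early genes, whose protein products include transcription factors that drive cytokines, proteases and synaptic proteins. Astrocytes answer injury by enlarging and by changing the carriers and channels with which they clear ions and transmitter. Microglia and oligodendrocyte precursors proliferate after injury, and dividing cells carry a shared set of mitotic transcripts. The tissue was whole microdissected CA1, so RNA of neurons, glia, vessels and any adjoining tissue was read together. In such bulk samples, fewer cells of a type and less RNA per cell cannot be told apart.

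The 6 libraries held between 9328095 and 22347349 counts, against 2663936 to 30133731 over all 24. Levels are given as CPM, counts scaled to a common library total after TMM normalization, which corrects that total for a few very abundant genes, and changes as the log2 ratio of SE 36 h over SE 24 h (log2FC, positive where SE 36 h was higher) with its standard error. The CA1 pyramidal cell markers were detected in all 6 libraries, with summed levels of 1090 to 1430 CPM at SE 24 h and 1250 to 1490 CPM at SE 36 h. Markers of sensory ganglia, a tissue outside the brain, summed to 1810 CPM in SE 36 h replicate 3 and to 155 and 183 CPM in the other SE 36 h libraries. The SE 24 h libraries held 171 to 272 CPM of them and the controls 92.3 to 3310 CPM. Xist, the transcript of the inactive X chromosome of female cells, read 28.4 CPM in SE 36 h replicate 3, 3.22 CPM in SE 24 h replicate 3 and at most 0.148 CPM in the other 4 libraries. The part of these in the results was tested only by leaving each library out. SE 36 h replicate 3 was also the one SE 36 h library whose label number fell in the same range as those of all 3 SE 24 h libraries. SE 24 h replicate 3 held the highest levels of immediate early genes. Among the controls, Ctr 72 h replicate 2 stood apart: in 42 of the 99 called genes described below it alone set a limit of the control range that moved by over 1.5 times without it. Where that bears on a statement, the range of the other 8 controls is given too. Differences between libraries of the same group (median absolute log2 difference of 0.239 to 0.33) were close to those between the groups (0.273 to 0.407).

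Of 18153 genes tested, 99 were called (0.545%), meaning a Benjamini-Hochberg adjusted p no higher than 0.05 by the quasi-likelihood test of edgeR together with an absolute log2FC of 1 or more. These were 66 higher (0.364%) and 33 lower (0.182%) at SE 36 h. At an adjusted p of at most 0.05 with no fold threshold, 162 genes passed (0.892%), 95 higher (0.523%) and 67 lower (0.369%). At an unadjusted p under 0.05, 3018 genes passed (16.6%). The median log2FC over all genes was -0.02, with 8706 genes above 0 and 9447 below. In the 99 called genes, all 3 libraries of one group lay beyond all 3 of the other, while over all genes this held for 1658 that were higher (9.13%) and 1788 that were lower (9.85%). The number of calls moved with the libraries used, from 15 when SE 24 h replicate 3 was omitted and 19 when SE 36 h replicate 1 was, to 128 with SE 36 h replicate 2 omitted and 155 with SE 24 h replicate 2 omitted. With DESeq2 293 genes were called, and without the RUVr factor, a term estimated from the residuals that stands for unwanted variation, 19. That factor was 0.8 in Ctr 72 h replicate 2, -0.39 in replicate 1 and -0.35 in replicate 3 of that group. In all other libraries it lay between -0.1 and 0.13, so it mainly set apart 72 h controls, which are outside the comparison. When only the 6 libraries were fitted, also without the RUVr factor, 1 gene was called. It was Sv2c, a synaptic vesicle protein, and was not among the 99.

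**Figure D1:**
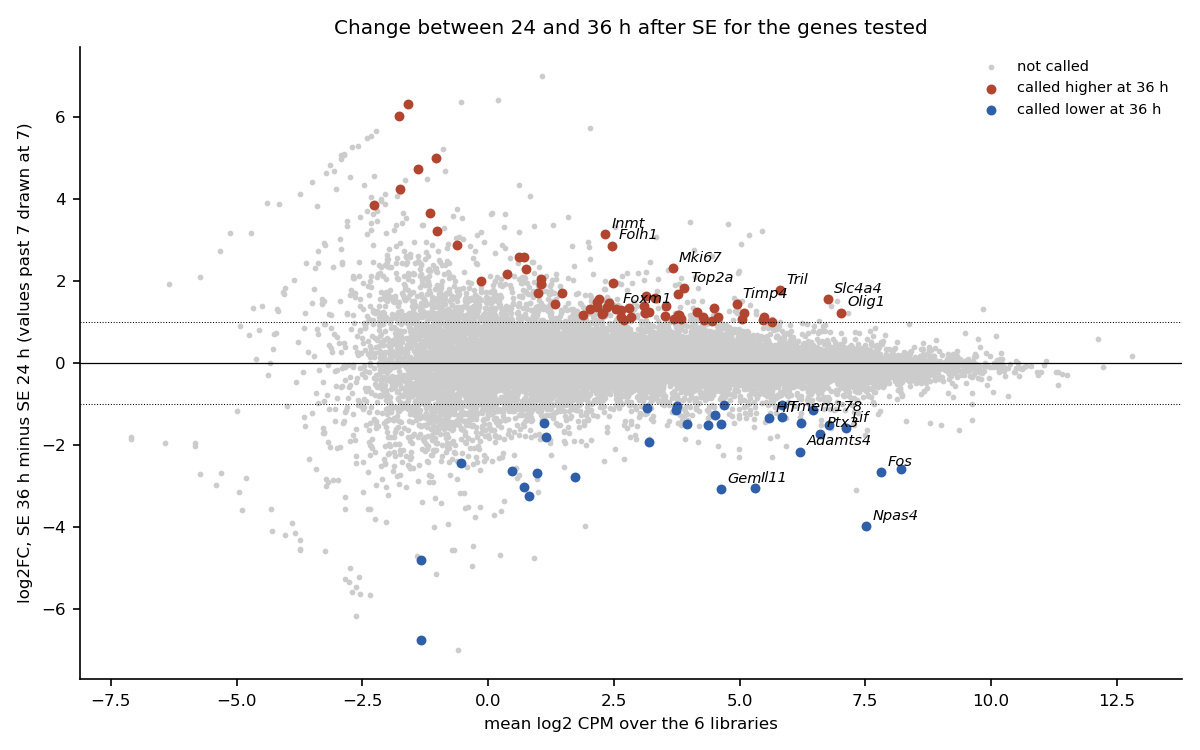
Each point is a gene, with its mean level over the 6 libraries on the x axis (log2 CPM) and its log2FC, SE 36 h minus SE 24 h, on the y axis. The 66 genes called higher and the 33 called lower are coloured and selected ones are named, and the dotted lines mark an absolute log2FC of 1.

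A set of 12 genes was called in the full data and in each of the 6 fits that left out 1 compared library, and is described first. Of these, Adamts4, Atp13a4 and Tep1 were not called without the RUVr factor (adjusted p = 0.0509, 0.0687 and 0.271). All 12 were called when a factor for label number range, of which the 24 libraries hold 3, was added. Among them were 4 genes that astrocytes express. Slc4a4 (chr5:89034345-89387514, GRCm39) encodes the electrogenic sodium bicarbonate cotransporter with which astrocytes regulate pH. Its level was 62.2, 65.8 and 37.8 CPM in the SE 24 h libraries and 202, 107 and 176 CPM in the SE 36 h libraries. Every SE 36 h library was above every SE 24 h library, with a log2FC of 1.55 ± 0.20 (adjusted p = 0.00134). The 9 control libraries held 136 to 182 CPM with a median of 163, so all 3 SE 24 h libraries were below all controls. In the SE mice the mean was 137 CPM 6 h after SE, 80.1 CPM at 12 h and 321 CPM at 72 h, so the lowest mean of the course was at 24 h.

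Tril (chr6:53792453-53797815), a leucine-rich repeat protein that acts with Toll-like receptors and is abundant in astrocytes, read 26.8, 33.6 and 14.9 CPM at SE 24 h and 112, 56.2 and 91.6 CPM at SE 36 h. The groups did not overlap and the log2FC was 1.78 ± 0.24 (adjusted p = 0.00191). Controls ran from 34.3 to 70.7 CPM, above all SE 24 h libraries. Timp4 (chr6:115187773-115229336), an inhibitor of matrix metalloproteinases, read 15.3, 23.1 and 11.1 CPM and then 51.5, 34.8 and 47.9 CPM. Again all SE 36 h libraries were higher, with a log2FC of 1.43 ± 0.21 (adjusted p = 0.00337), and the controls lay between 25.6 and 50.4 CPM. Counting ignored the strand, and 22.3% of the exon length of Tril and 14.7% of that of Timp4 is shared with another gene, so reads of those parts cannot be told apart.

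Folh1 (chr7:86367992-86425186) encodes glutamate carboxypeptidase II, the glial enzyme that splits the neuropeptide NAAG into N-acetylaspartate and glutamate. It read 1.27, 1.44 and 1.26 CPM at SE 24 h and 12.7, 4.57 and 11.9 CPM at SE 36 h. The SE 24 h libraries were close to each other and far below the SE 36 h libraries, with a log2FC of 2.86 ± 0.37 (adjusted p = 0.00134). Controls held 7.34 to 11.4 CPM, so Folh1 was below all controls at 24 h and had a mean of 19.4 CPM at 72 h.

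Foxm1 (chr6:128339518-128353147), a transcription factor of the G2 and M phases of the cell cycle, read 4.14, 2.7 and 3.36 CPM at SE 24 h and 8.97, 6.38 and 9.69 CPM at SE 36 h. Its log2FC was 1.31 ± 0.21 (adjusted p = 0.0058) without overlap, controls held 2.05 to 3.22 CPM, and the mean at 72 h was 22.1 CPM. Other genes cover 10.2% of its exon length. Tep1, a component of the telomerase and vault particles, read 5.63, 5.49 and 5.33 CPM and then 14.2, 10.9 and 13.3 CPM, a log2FC of 1.25 ± 0.20 (adjusted p = 0.00464). The libraries of each group lay close together. Controls held 1.87 to 14.8 CPM, but 1.87 to 4.68 CPM without Ctr 72 h replicate 2, and all 6 libraries were above the latter range.

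Of the genes that fell, Gem (chr4:11704343-11714993) had the largest change of those called in every omission. It encodes a small GTPase that inhibits voltage-gated calcium channels and is induced by activity. Its level was 45.5, 25.1 and 61.0 CPM at SE 24 h and 4.82, 8.51 and 3.36 CPM at SE 36 h. No library overlapped, and the log2FC was -3.07 ± 0.40 (adjusted p = 0.00134). Controls held 0.853 to 6 CPM, so all SE 24 h libraries were above all controls, and the SE means were 15.2 CPM at 6 h, 14.2 CPM for 12 h and 7.31 CPM for 72 h.

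Adamts4 (chr1:171077986-171089841), a protease that cuts the proteoglycans of the perineuronal matrix, read 104, 82.5 and 175 CPM at SE 24 h and 26.6, 29.4 and 26.6 CPM at SE 36 h. The SE 36 h libraries were tightly grouped below the SE 24 h libraries and just above the controls (3.92 to 22.3 CPM, or 15.7 to 22.3 CPM without Ctr 72 h replicate 2), with a log2FC of -2.16 ± 0.34 (adjusted p = 0.00471). Atp13a4, a cation-transporting ATPase of the P5 type, read 79.3, 129 and 121 CPM and then 47.3, 37.2 and 36.6 CPM, a log2FC of -1.47 ± 0.22 (adjusted p = 0.00331). Both groups were above all controls, which reached 23.7 CPM, and the SE means were 17.6 CPM at 6 h and 19.4 CPM at 12 h, so its highest mean was at 24 h.

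Relt, a member of the TNF receptor superfamily, read 27.3, 27.9 and 41.4 CPM at SE 24 h and 14.7, 12.6 and 13 CPM at SE 36 h (log2FC -1.26 ± 0.17, adjusted p = 0.00208). Tmem178, an endoplasmic reticulum protein that limits calcium signals, read 60.7, 74.0 and 112 CPM and then 33.6, 33.7 and 32.8 CPM (log2FC -1.32 ± 0.20, adjusted p = 0.00337). For both genes the SE 36 h libraries lay below all SE 24 h libraries. For Relt they were at the upper end of the control range (9.06 to 13.5 CPM), where 1 library exceeded it. For Tmem178 they were inside the range of the 9 controls (28.8 to 64.8 CPM) but below that of the 8 without Ctr 72 h replicate 2 (36.3 to 64.8 CPM). Epop, which joins Polycomb repressive complex 2 to elongin, read 11.5, 14 and 17.5 CPM and then 3.56, 4.41 and 3.59 CPM (log2FC -1.92 ± 0.30, adjusted p = 0.00447). Unlike the others it was below all controls (18.6 to 57.8 CPM) in both groups.

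**Figure D2:**
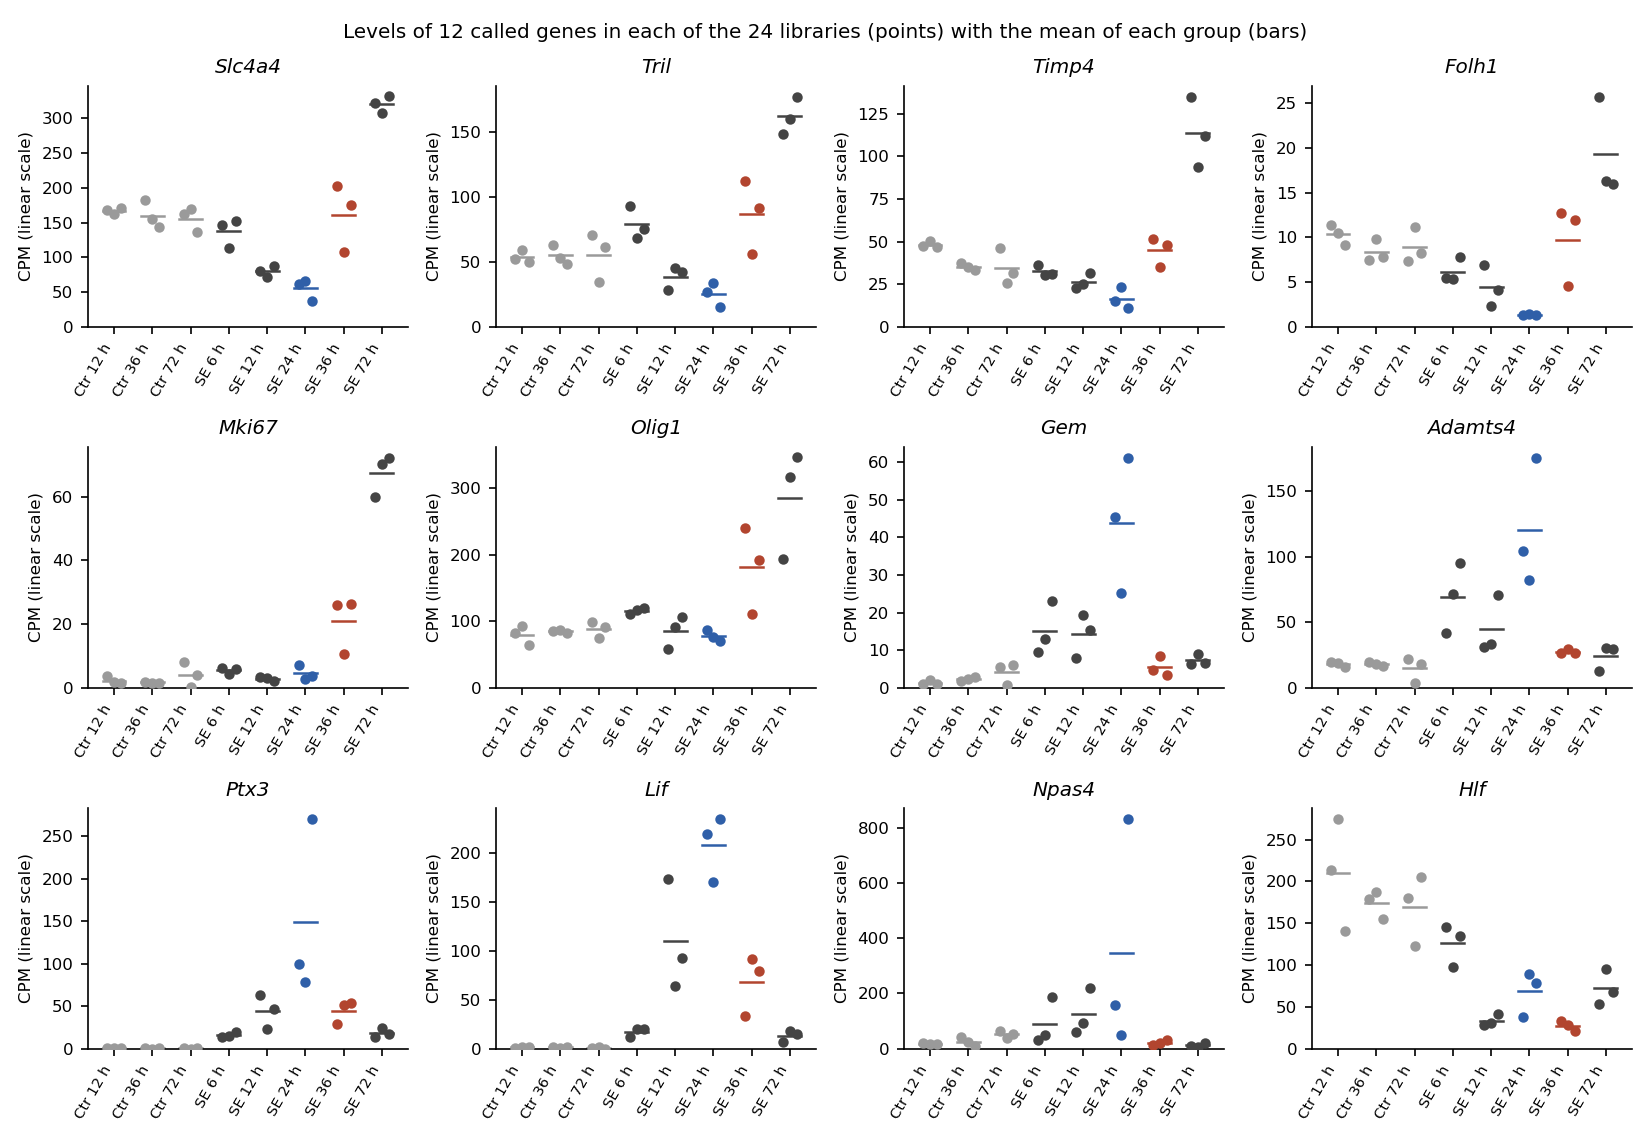
Levels of 12 called genes on a linear axis (CPM), with a point for each of the 24 libraries, a bar for each group mean, grey for controls, blue for SE 24 h and red for SE 36 h. Slc4a4, Tril, Timp4 and Folh1 were at their lowest SE mean at 24 h and at their highest at 72 h, while Gem, Adamts4, Ptx3, Lif and Npas4 were at their highest at 24 h, Npas4 owing most of its mean to 1 library at 830 CPM.

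The mitotic genes were the list with the most calls. Of 38 members tested, 4 were called higher (0.364% over all genes) and 0 lower. Of the 38, 37 had a log2FC above 0 and 19 were higher without overlap (9.13% over all genes). The median log2FC of the list was 0.80, against -0.02 over all genes. Their summed level was 354, 284 and 254 CPM at SE 24 h and 590, 406 and 476 CPM at SE 36 h, so every SE 36 h library was higher. Mki67 (chr7:135291513-135318299), which encodes the Ki-67 antigen of cycling cells, read 7.01, 2.66 and 3.78 CPM and then 25.9, 10.7 and 26.3 CPM. The groups did not overlap, the log2FC was 2.32 ± 0.43 (adjusted p = 0.0179), and the SE 72 h mean was 67.4 CPM. Top2a (chr11:98883769-98915062), the topoisomerase that untangles replicated chromosomes, read 9.88, 5.36 and 4.62 CPM and then 37.2, 11.7 and 20.5 CPM. The spread within SE 36 h was wide, and the log2FC was 1.82 ± 0.42 (adjusted p = 0.0442).

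The other called members supply DNA building blocks. Rrm2, a subunit of ribonucleotide reductase, read 4.46, 3.14 and 3.36 CPM and then 11.2, 5.44 and 9.80 CPM (log2FC 1.30 ± 0.30, adjusted p = 0.0465). Tyms, thymidylate synthase, read 3.40, 2.7 and 2.73 CPM and then 7.78, 5.6 and 7.01 CPM (log2FC 1.21 ± 0.28, adjusted p = 0.0475). Another gene covers 43.3% of the exon length of Rrm2, and both calls were kept in 1 omission, that of SE 36 h replicate 2, and lost in the other 5. The most abundant members of the list were not called. These were Pcna, the sliding clamp of DNA polymerase (log2FC 0.24, adjusted p = 0.49), Mcm6 (log2FC 0.60, adjusted p = 0.0904) and Mcm4 (log2FC 0.60, adjusted p = 0.104) of the replicative helicase, and Rrm1, the other reductase subunit (log2FC 0.77, adjusted p = 0.0599). Mcm6 was already above all controls (7.05 to 11.2 CPM) at SE 24 h, with 19.8 to 30.5 CPM, and read 31.8 to 48.5 CPM at SE 36 h. No member was called when SE 24 h replicate 3, SE 36 h replicate 1 or the RUVr factor was left out. DESeq2 called 8, while over all genes it called 293, 189 of them higher. Without SE 24 h replicate 3 Mki67 kept a log2FC of 2.24 (adjusted p = 0.102) and Top2a one of 1.63 (adjusted p = 0.215), and without SE 36 h replicate 1 they were 2.19 (adjusted p = 0.0788) and 1.32 (adjusted p = 0.211). Top2a was also lost when SE 24 h replicate 2 (adjusted p = 0.0907) or SE 36 h replicate 3 (adjusted p = 0.0807) was omitted. With label number range as a factor, Mki67 was called, while Top2a, Rrm2 and Tyms were not.

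Outside the list, Ube2c, the ubiquitin-conjugating enzyme of the anaphase-promoting complex, read 1.27, 0.566 and 0.631 CPM and then 5.11, 2.13 and 2.79 CPM (log2FC 2.05 ± 0.44, adjusted p = 0.0357). It was not called with SE 24 h replicate 3 omitted (log2FC 1.93, adjusted p = 0.172), with SE 36 h replicate 1 omitted (log2FC 1.68, adjusted p = 0.161) or with SE 24 h replicate 2 omitted. Nor was it called with the label number range as a factor or without the RUVr factor, and another gene covers 19% of its exon length.

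The promoters of 2 mitotic genes and of 2 immediate early genes are shown because letters known from each class were searched in them. Genes of the G2 and M phases are controlled through CCAAT boxes and the cell cycle genes homology region (CHR, TTTGAA), and activity-induced genes through the cAMP response element, whose core is TGACG. Each window is the 200 bases before the start of the canonical transcript in GENCODE M39 on GRCm39, read along the gene from 5′ to 3′, and capitals mark matches on either strand (ATTGG is CCAAT on the other strand). The windows are chr11:98915042-98915241 (minus strand) for Top2a, chr7:135318300-135318499 (minus strand) for Mki67, chr12:85520458-85520657 (plus strand) for Fos and chr19:5040345-5040544 (minus strand) for Npas4.
Top2a: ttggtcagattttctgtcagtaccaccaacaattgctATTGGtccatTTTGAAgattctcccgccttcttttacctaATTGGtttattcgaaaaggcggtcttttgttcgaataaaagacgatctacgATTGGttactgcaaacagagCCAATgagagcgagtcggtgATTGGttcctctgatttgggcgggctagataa
Mki67: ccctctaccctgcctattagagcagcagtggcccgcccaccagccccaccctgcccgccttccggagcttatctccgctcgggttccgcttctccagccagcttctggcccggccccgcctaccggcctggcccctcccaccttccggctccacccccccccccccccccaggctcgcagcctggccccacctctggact
Fos: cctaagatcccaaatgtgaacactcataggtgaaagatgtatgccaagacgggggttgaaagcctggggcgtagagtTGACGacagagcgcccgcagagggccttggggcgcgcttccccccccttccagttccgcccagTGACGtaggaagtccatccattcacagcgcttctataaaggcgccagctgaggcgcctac
Npas4: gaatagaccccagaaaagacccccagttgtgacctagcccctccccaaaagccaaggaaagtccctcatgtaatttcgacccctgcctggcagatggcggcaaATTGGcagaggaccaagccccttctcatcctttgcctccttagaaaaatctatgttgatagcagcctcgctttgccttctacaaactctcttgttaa

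The window of Top2a held 5 CCAAT boxes and 1 CHR, that of Fos 2 copies of TGACG, that of Npas4 1 CCAAT box, and that of Mki67 none of these letters. Over the 38 mitotic genes, 20 windows held CCAAT (52.6%) and 7 held TTTGAA (18.4%). Over the 18066 windows of all genes, these shares were 30.5% and 9.89%. CCAAT was not particular to the mitotic list, since 9 of 12 windows of clock output genes held it (75%). Of the 66 genes called higher, 28 windows held CCAAT (42.4%) and 9 held TTTGAA (13.6%). TGACG was in 14 of 23 windows of immediate early genes (60.9%), against 18.5% of all windows. It was in 26.3% of mitotic windows and in 4 of the 33 of genes called lower (12.1%). The full element, TGACGTCA, was in 3 of those 33 (9.09%), against 1.75% of all windows. It was in 8.7% of windows of immediate early genes, 5.26% of mitotic windows and 1.52% of those of genes called higher. These are counts of letters in fixed windows and not of bound sites, and letters of other elements that were searched are not reported here.

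The immediate early genes moved the other way. Of 23 tested, 0 were called higher and 2 lower (0.182% over all genes), all 23 had a log2FC below 0, and 12 did not overlap (9.85% over all genes). Their median log2FC was -1.19. The summed level was 3270, 2070 and 8530 CPM at SE 24 h and 1490, 1470 and 2260 CPM at SE 36 h, so SE 24 h replicate 3 stood far above the rest. Npas4 (chr19:5034382-5040344), an activity-dependent transcription factor of neurons, read 158, 49.7 and 830 CPM and then 13.8, 19.7 and 32.1 CPM. The libraries did not overlap although those of SE 24 h differed widely, and the log2FC was -3.98 ± 0.86 (adjusted p = 0.0372). Controls held 11.2 to 64.5 CPM, a range that took in all SE 36 h libraries. Fos (chr12:85520658-85524047), the AP-1 subunit, read 227, 118 and 822 CPM and then 48.0, 58.7 and 79.9 CPM (log2FC -2.65 ± 0.62, adjusted p = 0.0471). At SE 36 h 2 of its libraries were within the control range of 12.1 to 67.8 CPM and 1 was above it.

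Further members of the list showed the same library as the highest without passing the test. Arc, which acts on synaptic AMPA receptors, read 567, 344 and 2080 CPM and then 305, 300 and 364 CPM (log2FC -1.64, adjusted p = 0.13). Egr1, a zinc finger transcription factor, read 476, 311 and 1170 CPM and then 148, 174 and 380 CPM (log2FC -1.47, adjusted p = 0.234), and Jun had a log2FC of -0.65 (adjusted p = 0.451). No immediate early gene was called without SE 24 h replicate 3, where Fos had a log2FC of -1.45 (adjusted p = 0.299) and Npas4 one of -2.21 (adjusted p = 0.251). The same held without SE 36 h replicate 1, where they were -2.49 (adjusted p = 0.176) and -3.74 (adjusted p = 0.153), for the omission of SE 36 h replicate 3 (-2.88, adjusted p = 0.102, and -4.39, adjusted p = 0.0835) and for that of the RUVr factor. Both were also lost without SE 36 h replicate 2, with adjusted p = 0.0939 for Fos and 0.0733 for Npas4, and with the label number range as a factor. DESeq2 called 6. Among 19 activity-induced effectors, such as secreted peptides and synaptic proteins, 0 were called, 17 were below 0 and the median log2FC was -0.44. Among 12 genes of MAPK feedback, the phosphatases and Sprouty proteins that damp that pathway, 0 were called and the median was also -0.44.

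Several secreted factors were among the genes that fell. Lif, a cytokine of the interleukin 6 family, read 219, 170 and 234 CPM at SE 24 h and 33.9, 91.9 and 79.2 CPM at SE 36 h. The groups did not overlap, the log2FC was -1.59 ± 0.36 (adjusted p = 0.0438), and the 9 controls held at most 1.73 CPM, so it was still far above all of them at 36 h. Il11, of the same family, read 46.9, 41.1 and 121 CPM and then 3.56, 17.8 and 5.81 CPM (log2FC -3.04 ± 0.59, adjusted p = 0.0228), with controls at no more than 1.11 CPM. A list of 19 genes of IL-1, IL-6 and TNF signalling, which holds ligands, receptors and signal transducers but neither Il11 nor Relt, had Lif as its only call. Over all genes 0.182% were called lower. The median log2FC of the list was -0.44, with 8 members lower without overlap (9.85% over all genes).

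Thbd, thrombomodulin, the thrombin receptor of endothelium, read 109, 172 and 203 CPM and then 44.7, 83.6 and 42.5 CPM (log2FC -1.50 ± 0.32, adjusted p = 0.036). Its lowest SE 36 h values were in replicates 1 and 3, and all were above the controls (10.4 to 23.4 CPM).

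Ptx3, a secreted pentraxin of reactive astrocytes, read 100, 78.8 and 270 CPM and then 28.7, 51.6 and 54.2 CPM (log2FC -1.72 ± 0.40, adjusted p = 0.047). Tgm2, a transglutaminase that crosslinks matrix proteins, read 132, 85.8 and 145 CPM and then 65.1, 42 and 56.4 CPM (log2FC -1.14 ± 0.26, adjusted p = 0.0464), with 21% of its exon length shared with another gene and a call that held in 1 omission, that of SE 24 h replicate 2. Both genes stayed above all controls at SE 36 h. Phox2a, a homeobox factor of noradrenergic neurons, was at 0 in all 9 controls, at 4.14, 5.79 and 7.36 CPM at SE 24 h and at 0.371, 0.788 and 1.37 CPM at SE 36 h (log2FC -2.77 ± 0.54, adjusted p = 0.0367). Without SE 24 h replicate 3 none of Lif, Il11 (log2FC -2.35, adjusted p = 0.14), Thbd (log2FC -1.3, adjusted p = 0.176), Ptx3 (log2FC -1.0, adjusted p = 0.295) and Phox2a was called, and none was called without SE 36 h replicate 1. Lif, Il11, Thbd and Ptx3 were lost without SE 36 h replicate 3 as well, Ptx3 and Phox2a without SE 36 h replicate 2, and Lif without SE 24 h replicate 1. None of Lif, Il11, Thbd, Ptx3, Phox2a and Tgm2 was called with the label number range as a factor or without the RUVr factor.

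Of 33 matrix genes and their enzymes, 1 was called higher (Timp4) and 2 lower (Adamts4 among them), against 0.364% and 0.182% over all genes. The median log2FC of the 33 was -0.22. The 14 chemokines gave 0 calls and a median of -0.38. The endothelial and barrier list gave 0 calls of 22, with 15 above 0, 7 below and a median of 0.19. Tek, the angiopoietin receptor, was the member to pass the adjusted p, below the fold threshold, with 11.7, 10.1 and 12.9 CPM and then 26.4, 19 and 19.4 CPM (log2FC 0.90, adjusted p = 0.0323). The 2 members of highest level lay on the other side of 0. Slc2a1, the glucose carrier of the barrier, read 227, 232 and 255 CPM and then 163, 131 and 126 CPM without overlap (log2FC -0.77, adjusted p = 0.0893), and Flt1, a VEGF receptor, read 203, 198 and 215 CPM and then 159, 98.1 and 118 CPM (log2FC -0.71, adjusted p = 0.0648). Neither passed the threshold. Mural and meningeal cell genes, of vessel walls and the brain's covering, summed to 349, 470 and 354 CPM and then to 564, 513 and 592 CPM. Every SE 36 h library was thus higher, within the range of the 9 controls (356 to 720 CPM). That range includes Ctr 72 h replicate 2 and was not summed without it. None of their 14 members was called, 5 were higher without overlap (9.13% over all genes) and the median was 0.32. Col1a1, a fibrillar collagen chain, read 8.28, 24.9 and 10.7 CPM and then 44.2, 45.5 and 43.2 CPM (log2FC 1.59, adjusted p = 0.248). The part of such tissue in the other rises was not tested.

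The astrocyte genes were read as carriers and channels and as genes of reactive cells. Of 18 genes of astrocyte homeostasis and transport, 2 were called higher (0.364% over all genes) and 0 lower, with a median log2FC of 0.23. They were Slc4a4, given above, and Cldn10, a claudin, which read 2.97, 3.22 and 2.52 CPM and then 6.67, 5.44 and 8.03 CPM (log2FC 1.2 ± 0.26, adjusted p = 0.036). Both groups of Cldn10 were below all controls (23.9 to 40.8 CPM), and its call was lost in 4 of the 6 omissions and without the RUVr factor. Kcnj10, the inward rectifier Kir4.1 that buffers potassium, read 226, 264 and 187 CPM and then 524, 300 and 471 CPM. Its groups did not overlap, and with a log2FC of 0.94 ± 0.20 it passed the adjusted p (0.0386) but not the fold threshold. Its SE means were 130 CPM at 12 h and 762 CPM at 72 h.

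Of 29 reactive astrocyte genes, Ptx3 was called lower (0.182% over all genes) and none higher, and the median log2FC was -0.05. Of the members 17 were below 0 and 12 above, 6 were lower without overlap and 2 higher (9.85% and 9.13% over all genes). Gfap, the intermediate filament of astrocytes, read 4410, 3410 and 2810 CPM and then 6060, 4110 and 5830 CPM, overlapping between groups (log2FC 0.59, adjusted p = 0.201). Vim, vimentin, read 862, 722 and 979 CPM and then 1410, 1280 and 1310 CPM (log2FC 0.67, adjusted p = 0.193). Both are among the members above 0. Controls reached 309 CPM for Gfap and 189 CPM for Vim (56.6 CPM without Ctr 72 h replicate 2), so all 6 libraries were above them.

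In the oligodendrocyte lineage, 1 of 10 precursor genes was called higher (0.364% over all genes). The median log2FC of the 10 was 0.64 (0.49 to 0.66 over the omissions). Olig1, a transcription factor of the lineage, read 86.3, 75.6 and 69.9 CPM and then 240, 111 and 192 CPM (log2FC 1.23 ± 0.24, adjusted p = 0.0219). All SE 36 h libraries were above the controls (64.6 to 99.2 CPM), and other genes cover 17.8% of its exon length. Its call was lost without SE 24 h replicate 3 (adjusted p = 0.125), SE 36 h replicate 1 (adjusted p = 0.122) or SE 36 h replicate 3 (adjusted p = 0.0532). Pdgfra, the growth factor receptor of precursors, was not called (log2FC 0.37, adjusted p = 0.254), nor was Olig2 (log2FC 0.57, adjusted p = 0.27).

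None of 14 genes of myelinating oligodendrocytes was called, 12 were below 0, and their median log2FC was -0.57, from -0.83 to -0.19 over the omissions. Their summed level was 5840, 3670 and 8480 CPM at SE 24 h and 2850, 3290 and 4680 CPM at SE 36 h, overlapping between groups. Mbp, myelin basic protein, read 1490, 1090 and 2380 CPM and then 692, 875 and 1260 CPM (log2FC -0.81, adjusted p = 0.217). Mobp, another protein of compact myelin, had a log2FC of -1.01 (adjusted p = 0.187).

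Among immune genes no call was made in the microglial, complement, interferon or MHC lists. The 11 genes of homeostatic microglia had a median log2FC of 0.47, from 0.30 to 0.56 over the omissions, 10 were above 0 and 6 were higher without overlap (9.13% over all genes). Their sum was 586, 420 and 477 CPM at SE 24 h and 689, 562 and 639 CPM at SE 36 h. Csf1r, the receptor that microglia need for survival, read 141, 115 and 131 CPM and then 166, 149 and 161 CPM (log2FC 0.30, adjusted p = 0.269). Cx3cr1, the fractalkine receptor, had a log2FC of 0.27 (adjusted p = 0.467). Tmem119, a marker of resident microglia, read 26.3, 17.9 and 11.1 CPM and then 51.4, 35.2 and 42.4 CPM (log2FC 1.23, adjusted p = 0.157), with SE means of 3.65 CPM at 6 h and 86.8 CPM at 72 h. For Csf1r and Tmem119 the groups did not overlap, yet the test did not pass.

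The 20 reactive microglia genes had a median of 0.13, which was -0.02 without SE 36 h replicate 3. Spp1, osteopontin, read 505, 475 and 683 CPM and then 786, 1080 and 745 CPM against a control maximum of 48.6 CPM, or 15.4 CPM without Ctr 72 h replicate 2 (log2FC 0.72, adjusted p = 0.362). The 8 genes of infiltrating leukocytes summed to 16.5 to 37.1 CPM and 26.8 to 42.1 CPM, and their median of 1.08 turned to -0.36 without SE 36 h replicate 3.

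All 18 interferon response genes were above 0 with a median of 0.64, but none was free of overlap. Their sum was 527, 209 and 395 CPM at SE 24 h and 801, 274 and 525 CPM at SE 36 h, and the median ran from 0.10 to 1.12 over the omissions. The 14 genes of MHC and antigen presentation were all above 0 too (median 0.41), with B2m, the shared light chain of class I, at 123, 80.8 and 107 CPM and then 162, 98.1 and 157 CPM (log2FC 0.43, adjusted p = 0.196). The 14 complement genes had a median of 0.39, and C1qa, of the initiating complex, had a log2FC of 0.37 (adjusted p = 0.277).

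**Figure D3:**
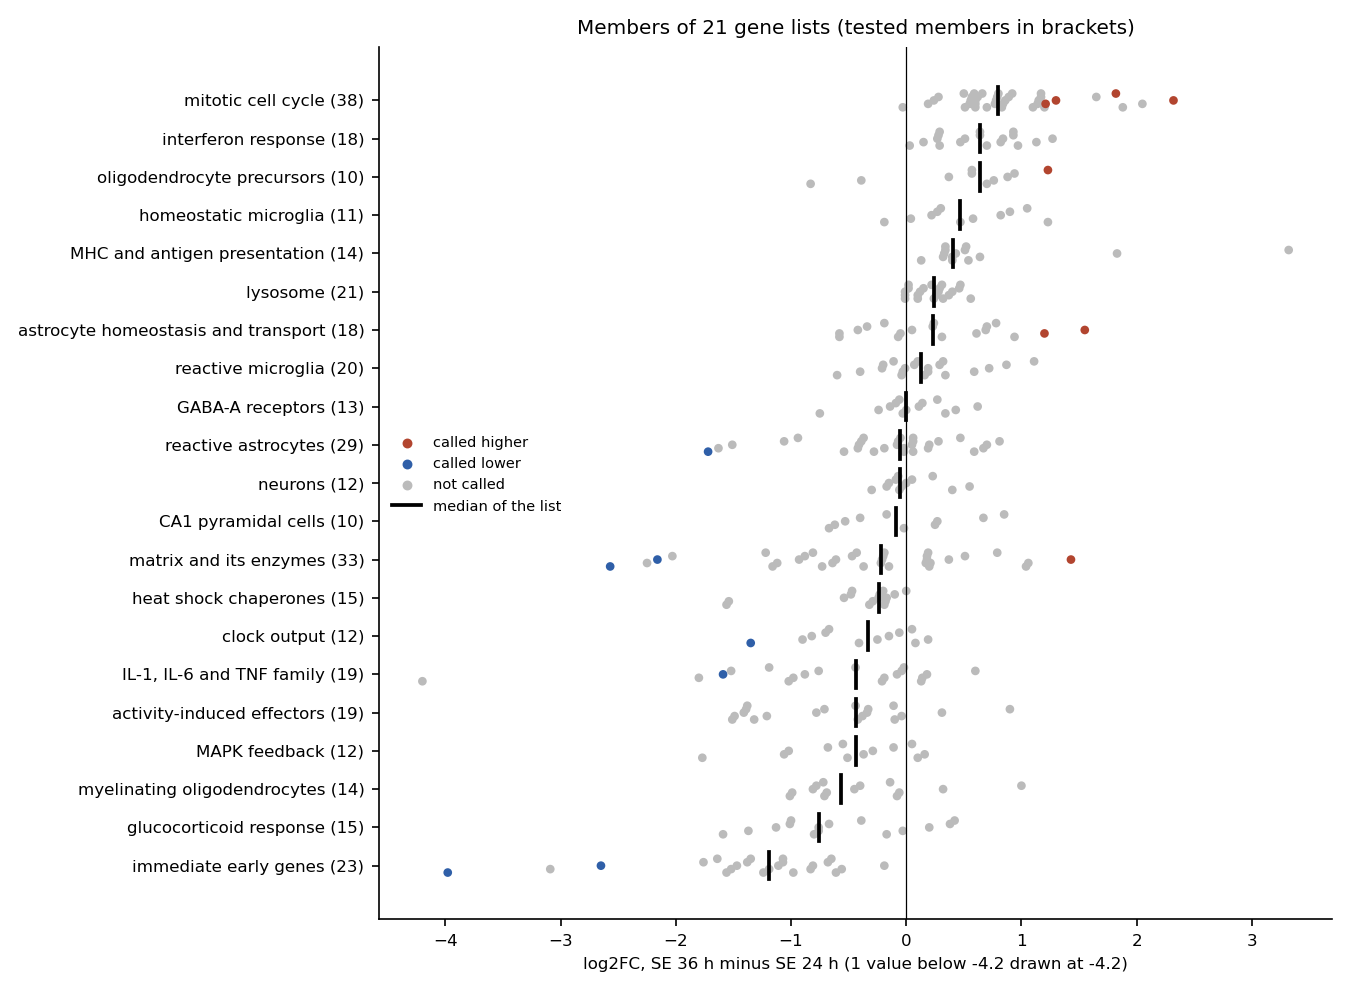
Each row is a gene list with the number of members tested, each point a member by its log2FC (SE 36 h minus SE 24 h), and each black bar the median of the list, with called members coloured. Mitotic genes lay on the right with a median of 0.80 and immediate early genes on the left with a median of -1.19, and most members of all lists were not called.

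Clock genes were of interest since the 12 h between the groups also placed them at different hours of a daily cycle, and the clock output genes of the PAR family swing with that cycle. Hlf, a transcription factor of that family that the study singles out, read 38.4, 89.1 and 79.0 CPM at SE 24 h and 32.9, 27.9 and 21.7 CPM at SE 36 h. All SE 36 h libraries were below those of SE 24 h (log2FC -1.35 ± 0.28, adjusted p = 0.0307), and both groups were below all controls (123 to 275 CPM). The call was kept in 1 omission, that of SE 24 h replicate 1, and lost in the other 5. It was also lost with the label number range as a factor and without the RUVr factor. In controls the mean of Hlf was 210, 174 and 169 CPM in order of time.

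Nr1d1, the nuclear receptor REV-ERBα that represses clock genes, read 113, 94.7 and 107 CPM and then 56.5, 64.3 and 49.5 CPM. It passed the adjusted p but not the fold threshold (log2FC -0.90 ± 0.16, adjusted p = 0.0125). Its SE means were 82.3, 50.2, 105, 56.8 and 68.0 CPM in order of time from 6 to 72 h, while control means were 96.6, 102 and 97.2 CPM. Tef (log2FC -0.41, adjusted p = 0.16), of the PAR family, and Per1 (log2FC -0.67, adjusted p = 0.209), a clock repressor, were not called. Over 12 clock output genes 1 was called lower (0.182% over all genes), 9 were below 0 and the median was -0.33. Over 8 genes of the opposite phase 0 were called and the median was -0.39, so both lists had medians on the same side of 0. The 72 h controls stood a whole number of days from 24 h and the 12 and 36 h controls a whole number of days from 36 h, counted from the injection, whose hour of day is not given in the sources used here. Single control libraries of these times overlapped for both genes, at 123 to 205 CPM against 141 to 275 CPM for Hlf and at 70.6 to 121 CPM against 90.8 to 118 CPM for Nr1d1.

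The 15 glucocorticoid response genes gave 0 calls, with 12 below 0, 10 of them lower without overlap (9.85% over all genes) and a median of -0.76. Their sum was 1160, 1180 and 1700 CPM and then 822, 758 and 846 CPM. Sgk1, a kinase induced by corticosteroids, read 189, 205 and 426 CPM and then 151, 108 and 151 CPM (log2FC -1.0, adjusted p = 0.0941). Errfi1, an inhibitor of the EGF receptor, read 105, 97.2 and 308 CPM and then 54.2, 57.5 and 57.8 CPM (log2FC -1.59, adjusted p = 0.0843). SE 24 h replicate 3 was again the highest library for both. The medians of the other stress and metabolic lists, all without a call, were -0.24 for heat shock chaperones, 0.05 for ER stress, -0.07 for NRF2 targets, -0.55 for p53 targets, -0.21 for cholesterol synthesis, -0.3 for glycolysis and 0.24 for the lysosome.

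No list of neuronal genes held a call. The 12 neuron markers had a median log2FC of -0.05, and summed to 8750 to 10800 CPM at SE 24 h and 9250 to 10500 CPM at SE 36 h, below the controls (12000 to 18100 CPM). The 10 CA1 pyramidal markers had a median of -0.09. Of receptors and channels, 13 GABA-A receptor subunits had a median of 0, 17 ionotropic glutamate receptor subunits one of -0.06, 45 potassium channel genes one of -0.07 and 31 sodium, calcium and HCN channel genes one of -0.17, with 0 calls in each. Kcnma1, the BK channel, read 205, 255 and 233 CPM and then 162, 187 and 161 CPM (log2FC -0.45, adjusted p = 0.113). The 14 interneuron genes gave 0 calls with 12 below 0 and a median of -0.34, and Gad1, which makes GABA, had a log2FC of -0.32 (adjusted p = 0.262). Dentate granule cell markers, of the subfield beside CA1, summed to 195 to 267 CPM and then to 403, 377 and 222 CPM, so 2 of 3 SE 36 h libraries held more. Prox1, their defining factor, read 17.2, 11.1 and 18.9 CPM and then 46, 56.8 and 15.8 CPM. The part of such tissue in the results was not tested.

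Of the largest rises and falls that the naming rule took in, Inmt, an N-methyltransferase, read 0.212, 0.871 and 1.61 CPM and then 8.45, 14.7 and 4.39 CPM (log2FC 3.14 ± 0.60, adjusted p = 0.0219). It was one of the few whose SE mean was highest at 36 h, since the 72 h mean was 1.12 CPM and controls held at most 1.44 CPM, and its call was lost without SE 36 h replicate 1 or replicate 2. Slfn9, a Schlafen family member, read 6.16, 3.88 and 2.94 CPM and then 20.7, 7.49 and 11.8 CPM (log2FC 1.63 ± 0.33, adjusted p = 0.0302), with controls no higher than 1.12 CPM, and was lost without SE 36 h replicate 1 or either of SE 24 h replicates 2 and 3. Plscr2, a phospholipid scramblase, read 2.44, 2.83 and 1.68 CPM and then 13.7, 4.41 and 8.6 CPM (log2FC 1.95, adjusted p = 0.0499), a call kept in 1 omission, that of SE 36 h replicate 2.

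Other rises ended near the control range. Phkg1, a catalytic subunit of phosphorylase kinase that starts glycogen breakdown, read 4.99, 6.84 and 2.94 CPM and then 20.2, 11 and 13.6 CPM (log2FC 1.58 ± 0.25, adjusted p = 0.00464), inside the range of the 9 controls (5.12 to 31.6 CPM) but below the 8 without Ctr 72 h replicate 2 (21.9 to 31.6 CPM), with 29.8% of its exon length shared and the call lost without SE 36 h replicate 1. Myh6, a myosin heavy chain, read 1.27, 0.697 and 0.701 CPM and then 4.15, 2.21 and 3.42 CPM against controls of 3.07 to 7.53 CPM, or 4.85 to 7.53 CPM without Ctr 72 h replicate 2. Mmp28, a metalloproteinase, read 0.743, 2.13 and 0.841 CPM and then 4.52, 4.65 and 3.59 CPM, with controls at 2.25 to 4.49 CPM. Aox1, aldehyde oxidase, read 7.75, 8.23 and 3.36 CPM and then 20.2, 15.1 and 27.7 CPM within a control range of 3 to 40.6 CPM that narrowed to 3 to 10.7 CPM without Ctr 72 h replicate 2. The calls of Myh6, Mmp28 and Aox1 were each lost when SE 24 h replicate 3 or SE 36 h replicate 1 was omitted, that of Mmp28 also when SE 24 h replicate 1 was and that of Aox1 also when SE 36 h replicate 3 was. On the falling side, Kcne4, an accessory subunit of potassium channels, read 3.61, 2.79 and 3.99 CPM and then 0.815, 0.867 and 1.25 CPM (log2FC -1.79 ± 0.38, adjusted p = 0.036), a call lost in 4 of the 6 omissions. Of these genes only Phkg1 was called with the label number range as a factor, where Inmt, Slfn9, Plscr2, Myh6, Mmp28, Aox1 and Kcne4 were not. None of these genes, Phkg1 included, was called without the RUVr factor.

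Several called genes of fatty acid handling were chosen for naming after their values were seen. Cpt1a, which admits fatty acids to mitochondria, read 35.1, 28.3 and 23.3 CPM and then 58.4, 48.7 and 72 CPM (log2FC 1.05 ± 0.17, adjusted p = 0.00464). Crot, the peroxisomal carnitine acyltransferase, read 25.3, 20.8 and 17.9 CPM and then 44.2, 37.5 and 53.1 CPM (log2FC 1.08 ± 0.15, adjusted p = 0.00239). Pnpla7, a lysophospholipase, read 9.03, 10.7 and 7.78 CPM and then 21.8, 18 and 18.6 CPM (log2FC 1.08 ± 0.16, adjusted p = 0.00248). In all 3 the SE 24 h libraries were the lower ones with tight groups, and each fell under the fold threshold in 2 omissions while its adjusted p stayed at most 0.0483. Without the RUVr factor Cpt1a was not called.

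Named on the same basis, Dock2, an exchange factor for Rac in immune cells, read 19.1, 13.8 and 10.7 CPM and then 32.1, 26.8 and 29.6 CPM (log2FC 1.03 ± 0.20, adjusted p = 0.0207). Itgb8, an integrin that activates TGF-β, read 35.3, 34.2 and 30.5 CPM and then 70.2, 68.1 and 60.6 CPM (log2FC 1.00 ± 0.19, adjusted p = 0.0224). Prex2, another Rac exchange factor, read 30.7, 31.3 and 22.5 CPM and then 72.8, 57.1 and 54.5 CPM (log2FC 1.13 ± 0.17, adjusted p = 0.00337). Dock2 was above all controls (3.63 to 11.4 CPM, or up to 6.74 CPM without Ctr 72 h replicate 2) at SE 36 h, and Prex2 was inside their range (45.7 to 88.6 CPM). Dock2 and Itgb8 were each lost in 3 omissions, SE 24 h replicate 3 and SE 36 h replicate 1 among them, and Prex2 in these 2. Dock2 and Itgb8 were not called with the label number range as a factor or without the RUVr factor.

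Tmem100, a membrane protein downstream of BMP signalling that the study names, read 14.1, 13.7 and 10.2 CPM at SE 24 h and 25.2, 22 and 31.9 CPM at SE 36 h. The groups did not overlap (log2FC 1.05 ± 0.18, adjusted p = 0.00713), and controls ran from 11.8 to 38.2 CPM, or to 18.2 CPM without Ctr 72 h replicate 2, below all SE 36 h libraries. It was the only call of 23 genes in the Notch, BMP and Wnt list (median -0.06), against 0.364% of all genes called higher. Tmem100 was not called without SE 24 h replicate 3 (log2FC 0.92, adjusted p = 0.0574), SE 36 h replicate 3 (log2FC 0.9) or the RUVr factor. Cmtm5, a chemokine-like factor also named there, read 11.7, 5.01 and 6.87 CPM and then 13.9, 9.85 and 21.9 CPM, overlapping and not called (log2FC 1.00, adjusted p = 0.0836). Wnt7a, a secreted ligand that guides vessels and precursors, fell from 25.5, 29.4 and 36.7 CPM to 11.8, 10.0 and 10.8 CPM (log2FC -1.50 ± 0.25, adjusted p = 0.00634), from above all controls (14.7 to 24.1 CPM) to below all of them. Its call was lost without SE 24 h replicate 3 (log2FC -1.34, adjusted p = 0.0507) and with the label number range as a factor (log2FC -1.30, adjusted p = 0.0612).

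In 10 called genes 1 of the groups had no library above 3 counts, so their fitted changes depend on the prior count. The folds given here set the mean of the higher group against 3 counts per library in the lower group. They allow for no counting error in the higher group. Ska1, of the complex that binds chromosomes to the spindle, was at least 4.35-fold higher at SE 36 h, and Cd28, a T cell costimulatory receptor, at least 3.86-fold higher. Nat8, an acetyltransferase, was at least 3.02-fold higher. In the other direction Ildr1, an immunoglobulin-like receptor of tight junctions, was at least 3.8-fold lower. Its SE 24 h counts were 2, 13 and 23, so 1 library of the higher group was itself under 3 counts. Of the 6 omissions, the calls of Ska1 and Nat8 held in 3 each, that of Ildr1 in 2 and that of Cd28 in 1. Ska1, Cd28 and Ildr1 were not called without the RUVr factor or with the label number range as a factor, while Nat8 was.

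The genes called at 36 h were next read in the 3 SE 72 h and 3 SE 12 h libraries, which share no library with the comparison above. These groups are 60 h apart and 2766 of 18153 genes were called between them (15.2%), 1731 higher (9.54%) and 1035 lower (5.7%) at 72 h. Of the 66 genes called higher at SE 36 h, 51 were called higher there (77.3%), 1 was called lower (Gm29427, over 80% of whose exon length is shared) and 14 were not called. A log2FC above 0 was found for 62 of the 66 (93.9%) and for 52.5% of all genes. Of the 33 called lower at SE 36 h, 15 were called lower (45.5%), 2 were called higher and 16 were not called, and 6 had a log2FC above 0. Both comparisons came from the same fit with the same RUVr factor. As at SE 36 h, replicates 1 and 2 of SE 72 h have label numbers in the range 109 to 122. No SE 24 h or SE 12 h library has one in that range. Time and label number range therefore cannot be told apart by how far the 2 comparisons share calls.

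Most of the rising genes had still higher means at 72 h. For 56 of the 66 the highest SE mean was at 72 h (84.8%, against 31.8% of all genes). For 44 the lowest was at 24 h (66.7%, against 17.5% of all genes), a share that the choice of genes low at SE 24 h favours. Mki67 had a log2FC of 4.52 and Top2a one of 4.60 from 12 to 72 h. Of the 38 mitotic genes 32 were called higher (9.54% over all genes). Slc4a4 (2.00), Tril (2.09), Timp4 (2.13), Folh1 (2.15) and Olig1 (1.75) were called higher as well, and Kcnj10 had a log2FC of 2.55. All 11 homeostatic microglia genes and 15 of 18 interferon genes were called higher in this comparison (9.54% over all genes). Tmem119 among them had a log2FC of 3.72. Tmem100 had a log2FC of 0.00, and Inmt one of 0.79 that was not called.

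Among the falling genes, 22 of 33 had their highest SE mean at 24 h (66.7%, against 15.9% of all genes), which the choice of genes high at SE 24 h likewise favours. Npas4 (-3.28), Fos (-2.16), Il11 (-3.16), Lif (-2.99), Ptx3 (-1.21) and Thbd (-1.46) were called lower at 72 h than at 12 h too. So were 21 of 23 immediate early genes (5.7% over all genes). Gem (-0.92), Adamts4 (-0.89), Relt (-0.91) and Tmem178 (-0.94) had log2FC below 0 that were not called. Atp13a4 had a log2FC of 0.98 and was not called. Wnt7a (1.61) and Hlf (1.11) were called the other way, higher at 72 h than at 12 h.

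**Figure D4:**
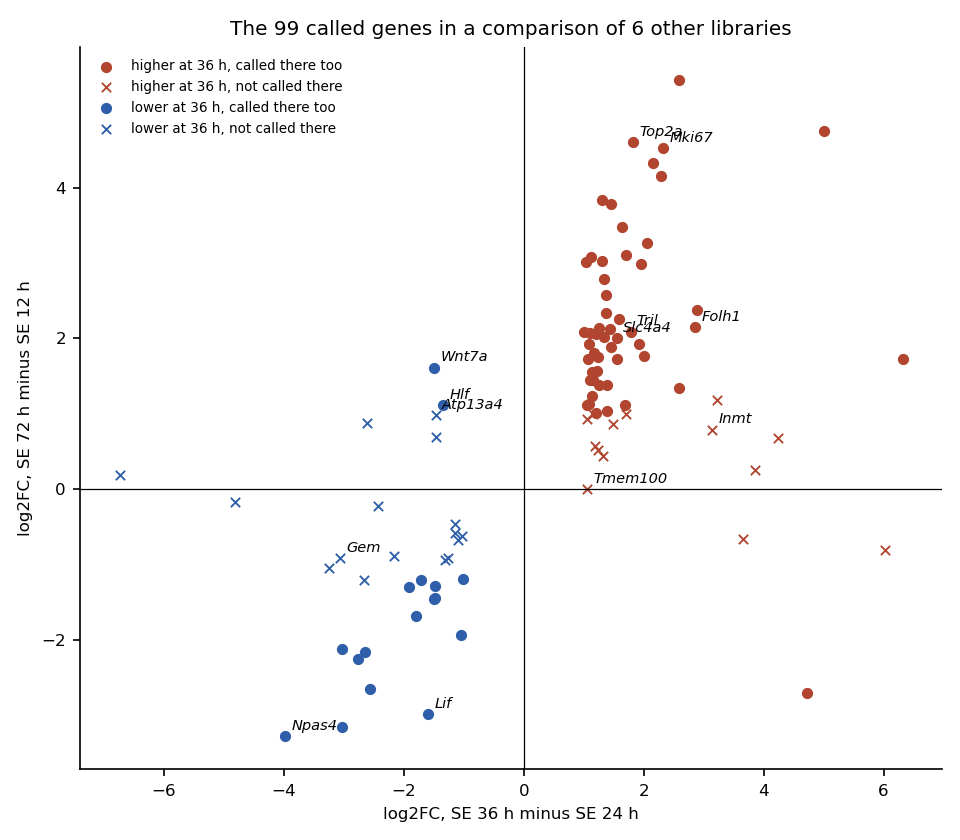
Each of the 99 called genes is placed by its log2FC from SE 24 h to SE 36 h (x axis) and from SE 12 h to SE 72 h (y axis), with dots for genes called in both and crosses for genes called on the x axis alone. Of the 66 red genes 62 lay above 0 on the y axis, and of the 33 blue genes 6 did, Wnt7a and Hlf among them.

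Levels were also set against the control libraries, with no test since no control was taken at 24 h. The called genes were chosen for a difference between SE 24 h and SE 36 h, which favours levels beyond the controls at one of these times, so the counts are descriptions. Of the 66 that rose, 27 had all 3 SE 24 h libraries below all 9 controls (40.9%, against 10% of all genes). Without Ctr 72 h replicate 2 this held for 28 (42.4%, against 13.8%). At SE 36 h, 20 had all libraries above all 9 controls (30.3%, against 12.7% of all genes) and 14 had all of them within the control range (21.2%, against 40.5%). Without Ctr 72 h replicate 2 these became 29 and 3 (43.9% and 4.55%, against 16.1% and 25.2% of all genes), so the count within the range rested on that library. Of the 33 that fell, 17 had all SE 24 h libraries above all 9 controls (51.5%, against 13.6% of all genes). Without Ctr 72 h replicate 2 this held for 19 (57.6%, against 16.6%). At SE 36 h 9 were above all controls, 13 within their range and 5 below them (27.3%, 39.4% and 15.2%, against 12.7%, 40.5% and 10.2% of all genes). The share within the range was thus close to that of all genes. Without Ctr 72 h replicate 2 these were 11, 6 and 7 (33.3%, 18.2% and 21.2%, against 16.1%, 25.2% and 14.2%).

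**Figure D5:**
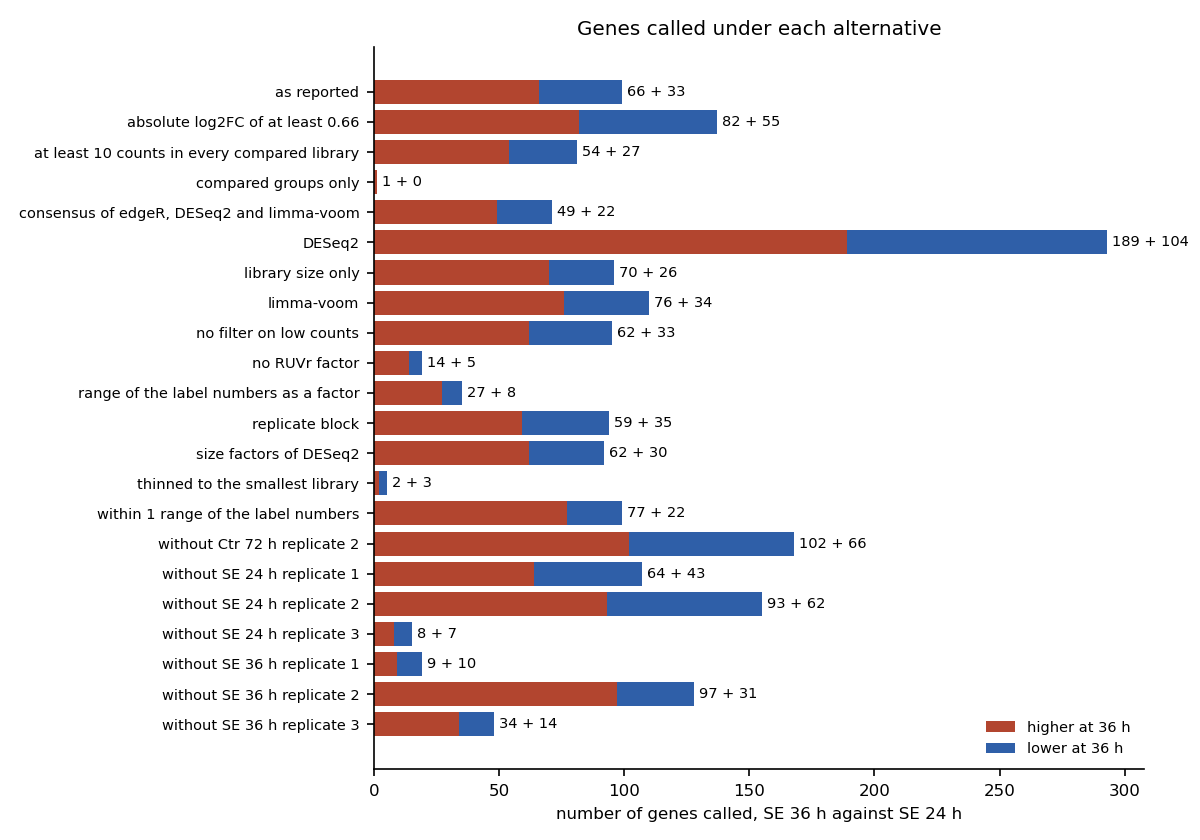
Bars give the number of genes called between SE 24 h and SE 36 h, red for higher and blue for lower at 36 h, as reported (66 and 33) and under each alternative. The counts ran from 1 and 0 when only the compared groups were fitted, also without the RUVr factor, to 189 and 104 with DESeq2.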

How the data were processed

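CA1 RNA was sequenced with an mRNA kit that does not keep the strand. The deposited values are whole-number counts for each gene. The authors produced them with Trim Galore 0.6.6, STAR 2.7.8a on GRCm39 with GENCODE M26, SAMtools 1.10 and htseq-count (HTSeq 0.13.5) with the strand ignored, and did not normalize them. Of 18647 genes 18552 were matched to symbols and positions.

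R 4.3.3 was used with edgeR 4.0.16, limma 3.58.1 and DESeq2 1.42.0. All 24 libraries were fitted together with TMM, filterByExpr over the 8 groups (18153 genes), a term per group and 1 RUVr factor, and each gene was tested by the quasi-likelihood method of edgeR, with p adjusted over all genes after Benjamini and Hochberg. Calls needed an adjusted p no higher than 0.05 and an absolute log2FC of 1 or more. The standard error given with a log2FC is its absolute value divided by the square root of the F statistic of that test. Fold bounds divided the observed mean of the higher group by 3 counts per library in the lower group. They cover neither the counting error nor the spread of the higher group. That the 3 libraries of a group came from separate animals is not given in the sources used here, so p-values measure the spread between libraries, which may be technical.

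The members, gene lists and tests were chosen with earlier results of these data known. Named genes were the 12 largest rises and falls whose mean log2 CPM was 1 or more and whose groups did not overlap, every called member of a described list and up to 4 of its most abundant others, Hlf, Tmem100 and Cmtm5, and markers. Further genes were chosen after their values were seen. Results for a few genes that these rules take in are not reported here. On simulated data for this comparison (17894 genes) 147 of 200 genes changed by a log2FC of 1.5 were recovered, with 3 false calls. The changed genes were drawn from those with a mean of 1 CPM or more, and each gene varied on its own. Differences shared by many genes of a library were not simulated, so false calls from these were not tested. Alternatives covered other tools, scaling, filters, the label number range, a replicate block, thinning to 2663936 counts and omitted libraries.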

Additional observations from a re-analysis of the deposited data

How the results depend on the processing

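Between SE 24 h and SE 36 h, 99 genes were called (66 higher, 33 lower). Omitting 1 compared library gave 15 to 155 calls (8 to 97 higher, 7 to 62 lower). No RUVr factor gave 19 (14 and 5), all among the 99, DESeq2 293 (189 and 104, 97 shared), and the label number range as a factor 35 (27 and 8, 30 shared). Thinning to the smallest library gave 5 (2 and 3). Fitting the compared groups only, also without the RUVr factor, gave 1 (1 and 0), with 2175 genes at an unadjusted p under 0.05. Omitting Ctr 72 h replicate 2 gave 168 (102 and 66), and a threshold of 0.66 gave 137 (82 and 55). Within the label number range 92 to 104, SE 36 h has 1 library, replicate 3, which was assumed to vary like the other groups, and 99 genes were called (77 and 22), of which only 28 were shared. Of the 12 genes called in every omission, Adamts4, Epop and Tmem178 were not called there. The consensus of the tools gave 71 (49 and 22). With library size only, 96 were called, 70 of them higher (72.9%, against 66.7% as reported), and the median over all genes moved from -0.02 to 0.06. Limma-voom (110), DESeq2's size factors (92), no filter (95) and at least 10 counts (81) stayed within 1.5 times. None of the 99 was called under all 21 alternatives, Slc4a4 and Tril were called in 20, and 1 gene changed sign in 1 of them. For SE 72 h against SE 12 h (2766, 1731 and 1035), the threshold of 0.66 gave 4353 (2590 and 1763), thinning 1196 (713 and 483), and omissions 2371 to 3127. The cause of these differences was not tested.

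With the replicate number as a block, 94 genes were called (59 higher, 35 lower), of which 82 were shared. Libraries with the same number deviated together with correlations of 0.08, 0 and 0.09, and not every library correlated best with its own number. What libraries of the same number share beyond it is not given in the sources used here. Calls of genes at a few CPM rest on few reads, and changes smaller than the spread between 3 libraries were not detectable at this depth.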
